A study of Mus musculus with 6 samples.

Results

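Eomes, Tbr1, Lmx1a, Lhx2, Lhx9, Olig3 and Meis2 are transcription factor genes that mark the rhombic lip of the developing hindbrain or the excitatory neurons it gives rise to. They were chosen by name, as every noncontrol probe whose gene name in the scanner files equals one of the 7 symbols, which gave 7 of the 34797 gene names and 11 of the 55681 probes on the array. Eomes and Tbr1 were each measured by 2 probes, Lhx9 by 3 and the other genes by 1. Where a gene had several probes, the probe with the highest mean over the arrays stands for the gene, and the others are described beside it.

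Cerebellar RNA from pups killed on postnatal day 1 was hybridized to 6 arrays in a single colour, to ask whether the folic acid (FA) in the diet of the mother alters gene expression in her offspring. All dams and pups were C57BL/6J mice, and the dams, 8 to 10 weeks old, ate a custom amino acid-based AIN-93G diet holding FA at 2 mg or at 20 mg per kg of diet, from 1 week before mating through pregnancy. Each array held RNA pooled from 3 pups of one sex, every pup from a different dam. There was 1 array of females and 1 of males in the 2 mg maternal FA group, and 2 of each sex in the 20 mg maternal FA group. By the methods, 1 of the 2 pools of each sex at 20 mg came from another batch, and the labels do not say which replicate that is. No group lacked FA, and 1 label field gives whole brain as the tissue where sample titles and methods give cerebellum.

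The rhombic lip is the strip of neural epithelium along the edge of the fourth ventricle, beside the roof plate, and its progenitors give rise to granule cells, unipolar brush cells and the excitatory neurons of the cerebellar nuclei. Olig3, a basic helix-loop-helix factor, and Lmx1a, a LIM-homeodomain factor, act in its progenitors and in the roof plate. Lhx9, Lhx2, Meis2 and Tbr1 mark postmitotic neurons on their way to the nuclei, Eomes (also called Tbr2) marks unipolar brush cells, and all 7 genes are also used in other parts of the brain, Tbr1, Eomes and Lhx2 in the cerebral cortex among them.

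The arrays were not equally bright. The array labelled female 20 mg replicate 2 had 23.3% of its probes well above background by the scanner software's flag, against 51.1% to 71.9% on the other arrays, and a median processed signal of 5.14 against 39.0 to 162. Its sex-linked genes did not all match its label. Eif2s3y, carried by the Y chromosome, was well above background there at 10.12 on the log2 scale, against 10.62 to 11.99 on the male arrays. The other female arrays read 3.32 at 2 mg and 4.04 on replicate 1 at 20 mg, which was flagged well above background too. Xist, transcribed from the inactive X chromosome, was 7.27 and not well above background on female 20 mg replicate 2. It was 9.67 and 10.84 on the other female arrays and at the floor of 3.32 on the male arrays. Ddx3y, at 7.71, and Uty, at 6.34, were not well above background on female 20 mg replicate 2, and Kdm5d was at the floor there. This array is called the dim array below, and the female levels and differences of the 7 genes are given with it and without it. All 13 cerebellar markers, such as En1, Zic1 and Barhl1, were well above background on both 2 mg arrays, and so were all 13 forebrain markers in the female 2 mg pool and 12 of the 13 in the male 2 mg pool.

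The probes are DNA of 60 bases, and those printed here are the ones whose readings of a single gene differ, so that a reader can see which stretch of the transcript each reading comes from. Coordinates are those of mouse build mm9 in the scanner files, every sequence is written 5′ to 3′ on the strand of the transcript, and no annotation of that build was used to place them in exons or untranslated regions. The probes far along the transcript are shown by their first 30 bases, and the 2 probes nearer its start in full. Capitals mark the hexamer AATAAA, the commonest signal for cleavage and polyadenylation of a transcript.
Eomes, brightest probe, chr9:118394425-118394484, plus strand, starting at base 2889 of the transcript, first 30 bases: gctatgaagaacgagtgcccggtgctatta
Eomes, second probe, chr9:118395189-118395248, plus strand, base 3653, first 30 bases: tcataagtcatttttAATAAAtgtggttca
Tbr1, brightest probe, chr2:61652093-61652152, plus strand, base 3898, first 30 bases: ccactgagaatcgttttgttttctgctcgt
Tbr1, second probe, chr2:61644054-61644113, plus strand, base 970, whole: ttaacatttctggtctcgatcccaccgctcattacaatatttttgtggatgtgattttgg
Lhx9, brightest probe, chr1:140721909-140721968, minus strand, base 4718 of transcript variant 1, first 30 bases: acaaggataaagatgcaggcatcagctctg
Lhx9, second probe, chr1:140729280-140729339, minus strand, base 1338 of transcript variant 3, whole: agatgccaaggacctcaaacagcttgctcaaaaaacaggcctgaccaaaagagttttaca
Lhx9, the third probe, chr1:140727544-140727603, minus strand, base 1997 of transcript variant 3, first 30 bases: gggaaaaaatggtattacgatgggcgaatt

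AATAAA occurred in the transcript strand of 1 of the 11 probes, the second Eomes probe, and in 10.1% of all 55681 probes. On the opposite strand it occurred in 1 of the 11, the Olig3 probe, and in 3.74% of all. These are matches of letters within the probe and not mapped sites. For Lmx1a, at chr1:169778804-169778863, Lhx2, at chr2:38224933-38224992, Olig3, at chr10:19078253-19078312, and Meis2, at chr2:115689641-115689700, a single probe was on the array and no second reading of the gene was at hand.

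The levels below are log2 intensities after quantile normalization of the 6 arrays, with values under 10 raised to 10, which is 3.32 on the log2 scale, and pairs of values at 20 mg are in the order replicate 1 and replicate 2, the second of which is the dim array in females. A level says how bright a probe is and not how many transcripts a cell holds, so the levels of different genes are not set against each other, and the place of each among all probes of an array is given instead. Meis2 lay between the 91.5 and 96.0 percentiles of all probes on the 6 arrays. Lhx9 lay between the 86.7 and 92.6 percentiles and Lhx2 between the 75.1 and 94.8. Eomes, Tbr1 and Lmx1a lay between the 70.3 and 89.7 percentiles, and Olig3 between the 33.3 and 58.5. Lmx1a, Lhx9 and Meis2 were well above background on all 6 arrays, Eomes, Tbr1 and Lhx2 on every array but the dim one, and Olig3 on 4 arrays.

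**Figure D1:**
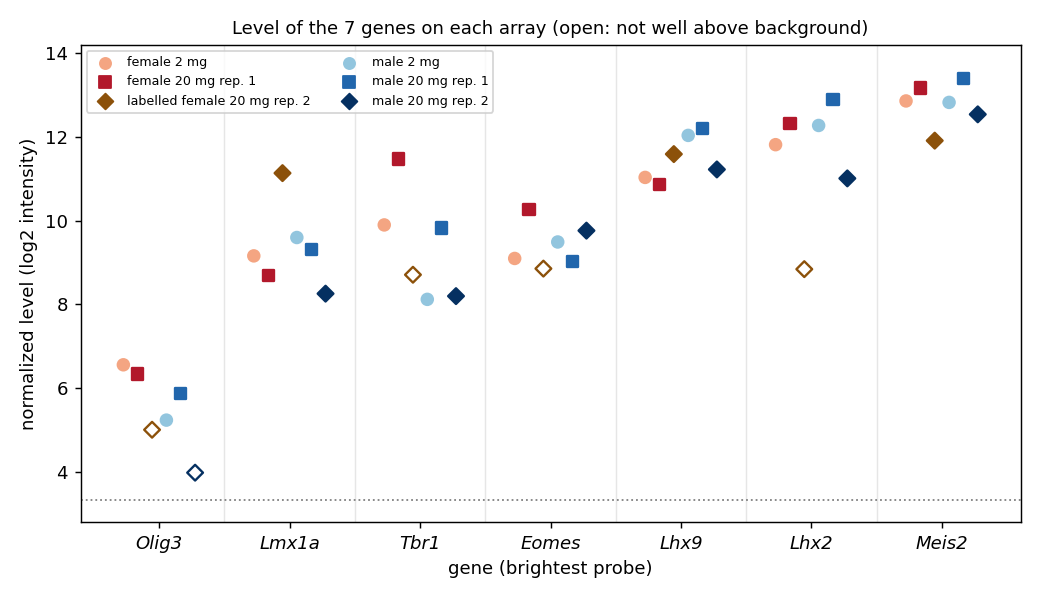
Normalized level (log2 intensity, vertical axis) of the brightest probe of each of the 7 genes (horizontal axis) on each array, 1 symbol per array, open where the probe was not well above background, with a dotted line at the floor. Meis2 stays between 11.91 and 13.39, Tbr1 spans 8.12 to 11.47, and Lhx2 drops to 8.84 on the dim array.

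In the comparison of the 20 mg with the 2 mg maternal FA group, no member gene reached the 2.5-fold difference between group means that the methods of the study use as their threshold, in males or in females. Among all 37211 probes bright enough to be tested, 6.40% passed 2.5-fold in males and 24.4% in females, either way. Of the 11 member probes, 1 passed, the third Lhx9 probe, which was lower in females. By limma with Benjamini-Hochberg adjustment over the 37211 probes, 0 members and 0 probes in all (0% called) had an adjusted p under 0.05 for the dose in males, in females, over both sexes or for the difference between the sexes. At an unadjusted limma p under 0.05, 0 members were found in any of these, against 74 probes (0.199%) in males, 161 (0.433%) in females, 145 (0.390%) over both sexes and 51 (0.137%) for the interaction. The fit has 2 residual degrees of freedom and 18.97 prior degrees of freedom, which it borrows from all probes, and takes the lone 2 mg arrays to vary like the pairs at 20 mg. In males the 95% interval of the narrowest member, Meis2, ran from -1.91 to 2.19 on the log2 scale. A difference of 2.5-fold, 1.32 on the log2 scale, lies, in either direction, inside the interval of every member probe in males and in females, so it was not detectable with this number of arrays. With 1 array against 2, an exact permutation test cannot give a p under 0.333.

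The median difference of the 7 genes was -0.31 in males, against -0.04 for all probes tested, with 2 genes higher and 5 lower. In females it was 0.19, against -0.21 for all probes, with 4 higher and 3 lower, and without the dim array 0.30, against 0.03 for all probes, again with 4 higher and 3 lower. In pooled tissue, fewer cells that express a gene and less of its RNA per cell cannot be told apart.

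**Figure D2:**
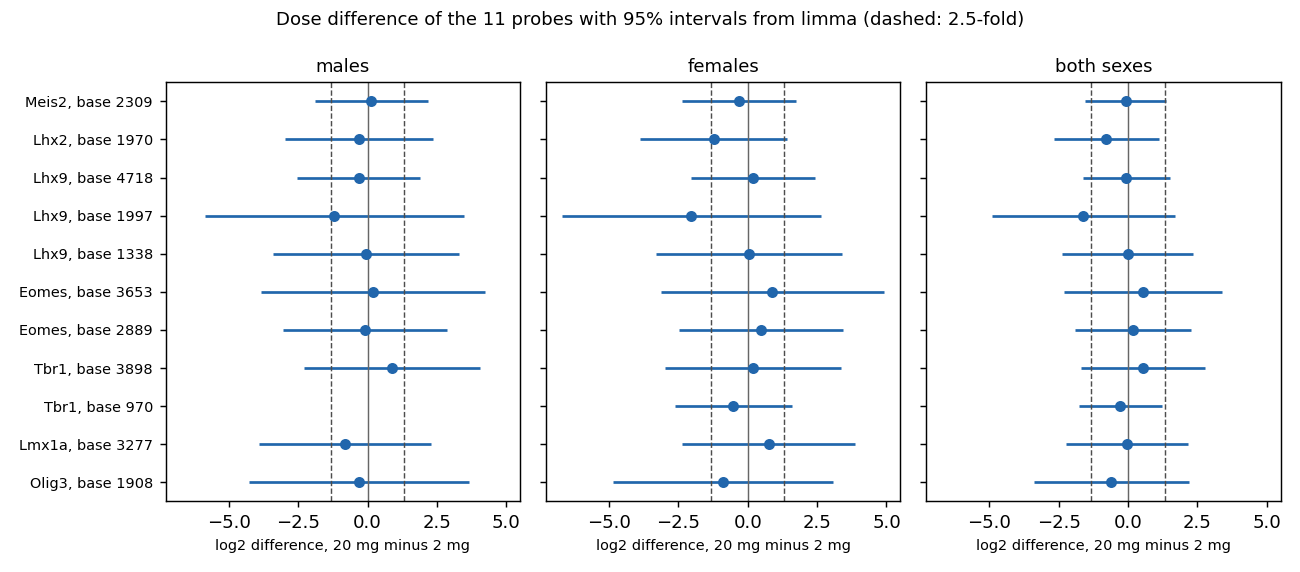
Difference between the 20 mg and the 2 mg group (log2, horizontal axes) for the 11 probes, named by gene and first base in the transcript (vertical axis), with 95% intervals from limma and dashed lines at 2.5-fold, for males, females and both sexes. Every interval spans 0, and the third Lhx9 probe, at base 1997, is farthest from it in females at -2.04; the second Tbr1 probe, at base 970, has no point in males, where it was not well above background.

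Among the genes of rhombic lip progenitors, Olig3 is needed for the birth of neurons from this zone. In females it was 6.56 at 2 mg and 6.34 and 5.01 at 20 mg, the lower value on the dim array and not well above background. In males it was 5.24 at 2 mg and 5.87 and 3.98 at 20 mg, the last not well above background. Males were therefore split, with replicate 1 at 20 mg above the 2 mg array and replicate 2 below it. In females both arrays at 20 mg were below the 2 mg array, replicate 1 at -0.22 and the dim array at -1.55. The mean difference was -0.88 in females (SD of the 20 mg arrays 0.94, n = 2) and -0.31 in males (SD 1.33, n = 2), within the spread between pools in both, and -0.24 in females without the dim array. At 2 mg, the male pool differed from the female pool by -1.32 for Olig3 on the log2 scale, with 1 array each and no test.

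Lmx1a, which specifies the roof plate and marks cells of the upper rhombic lip, was 9.60 at 2 mg and 9.32 and 8.26 at 20 mg in males. In females it was 9.16 at 2 mg and 8.68 and 11.13 at 20 mg. Both male arrays at 20 mg and female 20 mg replicate 1 were below the 2 mg array of their sex, and the dim array was the highest of the 6. In males the difference of -0.81 (SD of the 20 mg arrays 0.75, n = 2) was larger than the spread between the pools but had an adjusted p of 1 by limma. In females it was 0.75 (SD 1.73, n = 2) with both arrays and -0.47 without the dim array. The female minus the male dose difference was 1.56 (SE 2.11), with an adjusted p of 1.00 by limma. It rests on the dim array, as the female value without that array, -0.47, has the same sign as the male one, -0.81. Lmx1a also marks dopaminergic progenitors of the midbrain, and 4 of 7 midbrain markers, Slc6a3, Foxa1, Foxa2 and Gata3, were past 2.5-fold lower in males, with a list median of -1.36, where 4.19% of all probes tested were past it lower. The other markers of the list were higher in males, Pitx3 by 0.58, Th by 0.47 and Pou4f1 by 0.34. On male 20 mg replicate 2, where Lmx1a was lowest, Pitx3 was 8.87 against 7.06 at 2 mg, and Th 11.92 against 10.45. Foxa1 and Foxa2 passed 2.5-fold through male 20 mg replicate 2 alone, where neither was well above background. Slc6a3 also fell mostly on that array, at 9.58 at 2 mg and 8.91 and 7.26 at 20 mg. Gata3 was 11.64 at 2 mg and 10.38 and 10.19 at 20 mg. On single arrays the median of the midbrain list was -0.53 on male 20 mg replicate 1, -1.45 on male 20 mg replicate 2, -0.23 on female 20 mg replicate 1 and 0.77 on the dim array. Lmx1a differed from the 2 mg array by -0.28, -1.34, -0.47 and 1.98 on the same arrays. The summed linear level of the list ranged from 4473 to 10097 in females and from 4670 to 7358 in males, all 7 markers were well above background on 4 arrays and 5 on the other 2, and the part of these cells in the level of Lmx1a was not tested.

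The postmitotic genes divided in how much they varied. Meis2, a homeodomain factor of early neurons of the nuclei, was 12.86 at 2 mg and 13.16 and 11.91 at 20 mg in females. In males it was 12.82 at 2 mg and 13.39 and 12.54 at 20 mg. In each sex the 2 mg array lay between the 20 mg arrays, and the mean differences, -0.32 in females (SD 0.89, n = 2) and 0.14 in males (SD 0.60, n = 2), were within the spread. Without the dim array the female difference was 0.30. The 2 mg pools of the sexes differed by -0.03.

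Lhx2, a LIM-homeodomain factor, was 11.81 at 2 mg and 12.31 and 8.84 at 20 mg in females. In males it was 12.27 at 2 mg and 12.89 and 11.01 at 20 mg. As with Meis2, replicate 1 at 20 mg was the highest of its sex and replicate 2 the lowest, and the dim array was far below all others and not well above background for this gene. The female difference of -1.24 (SD 2.45, n = 2) is 2.35-fold, the nearest of the 7 genes to the threshold, and rests on that array: without it the difference was 0.47. In males the difference was -0.32 (SD 1.33, n = 2). Over the 6 arrays Lhx2 and Meis2 had a Pearson r of 0.968, and 0.919 over the 5 without the dim array.

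Lhx9, another LIM-homeodomain factor of neurons of the nuclei, was 11.03 at 2 mg and 10.86 and 11.59 at 20 mg in females. The male arrays read 12.03 at 2 mg and 12.20 and 11.22 at 20 mg. The dose groups overlapped in both sexes, with mean differences of 0.19 (SD 0.51, n = 2) and -0.32 (SD 0.69, n = 2), and the female one was -0.16 without the dim array. At 2 mg the male pool was 1.00 above the female pool on the log2 scale, 1 array each, and the other probes of the gene had the same sign, at 1.40 and 1.61.

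The third Lhx9 probe was unlike the brightest in its dose difference. It was 7.13 at 2 mg and 6.86 and 3.32, the floor, at 20 mg in females, the last not well above background, and 8.73 at 2 mg and 7.64 and 7.43 at 20 mg in males. It was the one member probe below the 2 mg array of its sex on all 4 arrays at 20 mg, as 6.69% of all probes tested were. The male difference of -1.20 is 2.30-fold and larger than the SD of 0.14 between the pools at 20 mg (n = 2). The female difference of -2.04 (SD 2.5, n = 2) is 4.10-fold and past the threshold, as 17.3% of the probes tested were on the lower side. It rests on the dim array, where the floor stands in for the reading, so its size depends on the floor chosen, and the other female array differed by -0.27. The adjusted p by limma was 1 in both sexes. This probe is listed for 1 transcript of Lhx9, variant 3, 5635 bases from the brightest probe in the genome, which is listed for 2 other transcripts. The second probe is listed for variant 3 as well and lies 1736 bases from the third, and it differed by 0.04 in females and -0.06 in males.

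**Figure D3:**
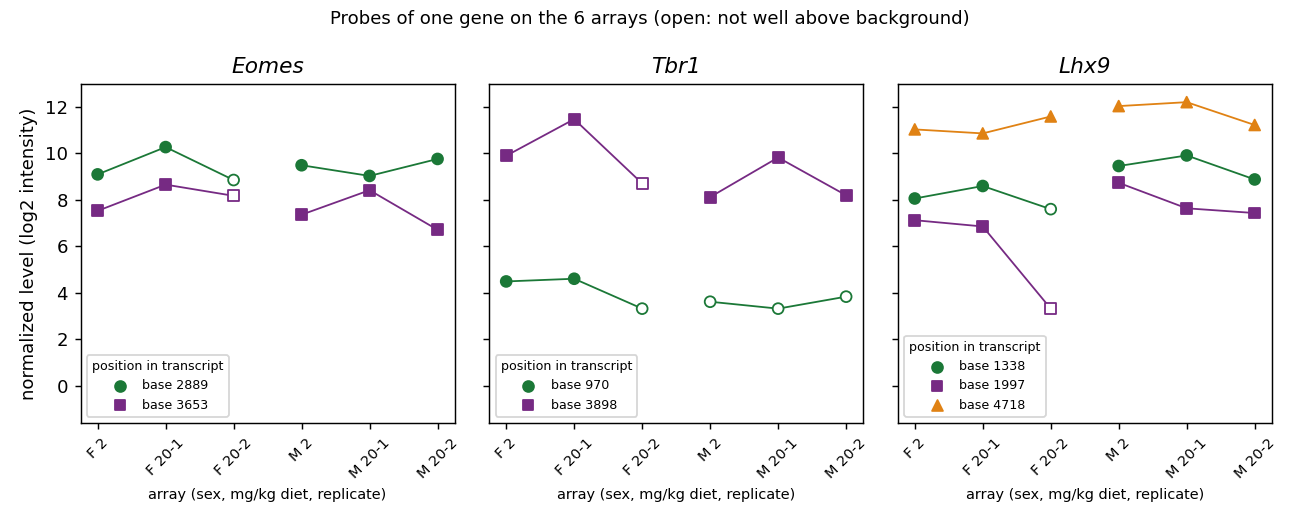
Normalized level (log2 intensity, vertical axes) of each probe of Eomes, Tbr1 and Lhx9 on the 6 arrays (horizontal axes; F female, M male, then mg/kg diet and replicate), with open symbols where the probe was not well above background; positions are counted in the transcript each probe is listed for. The Eomes probes have opposite orders on the male arrays at 20 mg, and the Lhx9 probe at base 1997 is the only one that is lower at 20 mg on all 4 arrays.

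Eomes, a T-box factor and the usual marker of unipolar brush cells, was 9.10 at 2 mg and 10.27 and 8.85 at 20 mg in females. Males had 9.49 at 2 mg and 9.03 and 9.76 at 20 mg. The 2 mg arrays lay between the 20 mg arrays in both sexes, and the mean differences were 0.47 (SD 1.00, n = 2) and -0.09 (SD 0.52, n = 2), and the female one was 1.15 without the dim array. The second probe, 764 bases downstream and holding AATAAA, was 7.53 at 2 mg and 8.66 and 8.17 at 20 mg in females. For males the levels were 7.36 at 2 mg and 8.42 and 6.71 at 20 mg. On the male 20 mg arrays the probes thus had opposite orders, with the first probe at -0.46 and 0.27 from the 2 mg array and the second at 1.05 and -0.65. Their Pearson r over the 6 arrays was -0.02, although both are listed for the same 2 transcripts, so the dose difference of Eomes depends on which of its probes is read.

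Tbr1, the T-box factor of early excitatory neurons in the nuclei and of deep-layer neurons in the cerebral cortex, varied the most of the 7 genes among the 5 other arrays when the dim array is set aside, with a range of 3.35 on the log2 scale. It was 9.90 at 2 mg and 11.47 and 8.71 at 20 mg in females, and the last was not well above background. The male pools gave 8.12 at 2 mg and 9.82 and 8.20 at 20 mg. Male 20 mg replicate 1 was above both other male arrays, which were alike, and female 20 mg replicate 1 was the highest of all. The mean differences were 0.19 in females (SD 1.95, n = 2) and 0.89 in males (SD 1.15, n = 2), within the spread. On single arrays Tbr1 was past 2.5-fold higher on female 20 mg replicate 1, at 1.57, as 1.95% of the probes tested were, and on male 20 mg replicate 1, at 1.70, as 6.29% were. Without the dim array it was therefore the 1 member gene past 2.5-fold in females, at 1.51, where 6.38% of probes passed either way, and the remaining comparison is 1 array against 1. The second Tbr1 probe, near the start of the transcript and 8039 bases away in the genome, was well above background on 2 arrays only, at 4.49 on female 2 mg and 4.61 on female 20 mg replicate 1.

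Of the other members on single arrays, Lmx1a passed 2.5-fold lower on male 20 mg replicate 2, as 8.25% of probes did, and higher on the dim array, as 18.5% did. Lhx2 at -2.97 and Olig3 at -1.55 passed it lower on that array, as 34.3% of the probes did. Eomes, Lhx9 and Meis2 passed it on no array by their brightest probe. On each of the 4 arrays at 20 mg between 1 and 3 of the 7 genes were past 2.5-fold, and the only gene past it on 2 arrays in the same direction was Tbr1.

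**Figure D4:**
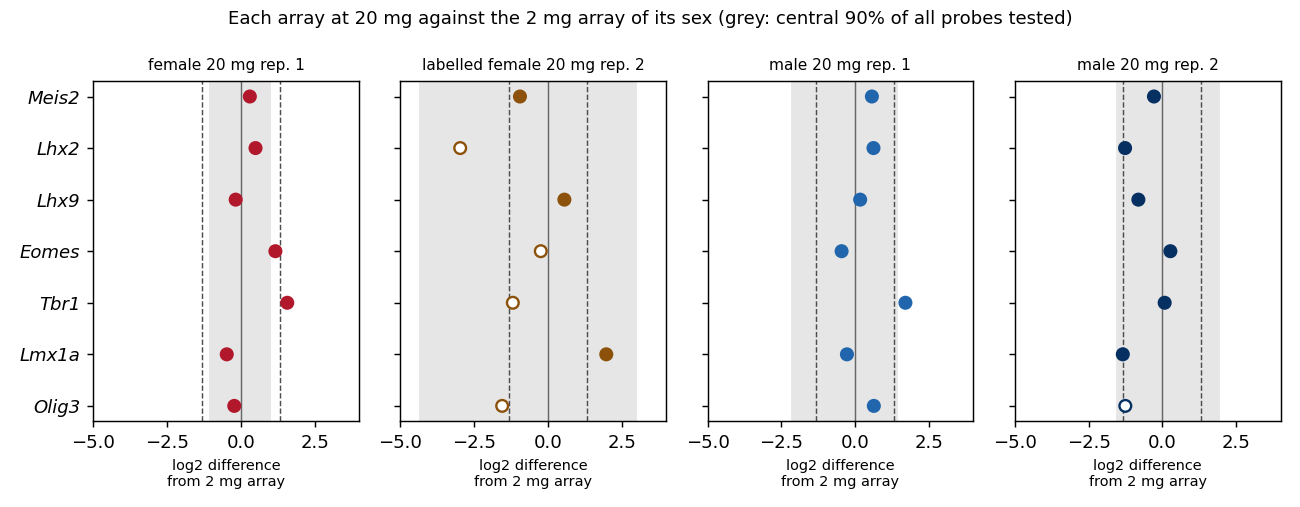
Difference from the 2 mg array of the same sex (log2, horizontal axes) for the 7 genes (vertical axis) on each array at 20 mg, 1 panel per array, with open symbols where the gene was not well above background. The grey band, which holds the central 90% of all probes tested, runs from -1.04 to 1.00 on female 20 mg replicate 1 and from -4.35 to 2.97 on the dim array (labelled female 20 mg rep. 2); Tbr1 and Eomes lie above the band on female 20 mg replicate 1, and Tbr1 on male 20 mg replicate 1.

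The genes whose pattern over the 6 arrays was most like that of a member were found among 7330 named genes well above background on every array. The points of each correlation share their arrays, brightness and normalization, so r is given as a description. For Tbr1, 6 genes in all were above an r of 0.9. Among the likest were Mpped1, with an r of 0.954 over 6 arrays and 0.980 over the 5 without the dim array, and St3gal1, at 0.934 and 0.956. Mpped1 was 12.08 at 2 mg and 12.84 and 10.86 at 20 mg in females. In males at 20 mg it was 12.30 and 10.98, and the 2 mg array lay between these, next to the lower. Both Tbr1 and Mpped1 were highest on female 20 mg replicate 1, next on female 2 mg and male 20 mg replicate 1, and lower on the other 3 arrays.

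Of the 13 forebrain markers, 9 were higher than in the 2 mg pool on female 20 mg replicate 1 and 11 on male 20 mg replicate 1, the arrays on which Tbr1 passed 2.5-fold. Their medians there were 0.69 and 0.92, against 0.03 and 0.09 for all probes tested. Of the 13 cerebellar markers, 5 and 11 were higher on the same arrays, with medians of -0.38 and 0.61, so the male count was not particular to the forebrain list. On male 2 mg, 11 of 13 forebrain markers were lower than on female 2 mg, with a median of -1.75, where Tbr1 differed by -1.78. The summed linear level of the list without Lhx6 was 8032 at 2 mg and 16535 and 5314 at 20 mg in females and 3359 at 2 mg and 7166 and 3338 at 20 mg in males. With Lhx6 it ranged from 19755 to 76779 in females and from 12847 to 70613 in males. In females 13, 13 and, on the dim array, 4 of the 13 markers were well above background, and in males 12, 12 and 8. Emx1, Dlx1 and Fezf2 were not well above background on the dim array or on male 20 mg replicate 2, and Fezf2 was at the floor on male 2 mg. The part of forebrain RNA in the level of Tbr1 was not tested. In males 4 forebrain markers were past 2.5-fold higher, as 2.21% of all probes tested were, and of these only Lhx6 passed it on both male arrays, at 13.21 at 2 mg and 14.65 and 16.04 at 20 mg.

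Lhx9 was most like Tal1, a factor of inhibitory neurons in the brainstem and midbrain, at 0.957, Barhl1, a homeodomain factor of rhombic lip derivatives, at 0.944, and Irx1 at 0.928. Over the 5 arrays without the dim one, these were 0.975, 0.970 and 0.969. Barhl1 was 11.05 at 2 mg and 11.36 and 12.44 at 20 mg in females. On the male arrays it was 12.53 at 2 mg and 12.88 and 11.49 at 20 mg. Both genes were highest on male 20 mg replicate 1 and next on male 2 mg. Eomes was most like Tsc22d3, a glucocorticoid-induced gene, at 0.953, and Sar1a, at 0.931. For Lmx1a, Lhx2 and Meis2, 854, 473 and 426 genes were above 0.9, so a high r singles out little, and the likest were Pitrm1, Plxna3 and Morn5, then C1qbp, Ap3s1 and Fam114a2, then Lsm7, Pdcd6 and Paip2. Olig3, measured well above background on 4 arrays, was not set against other genes.

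**Figure D5:**
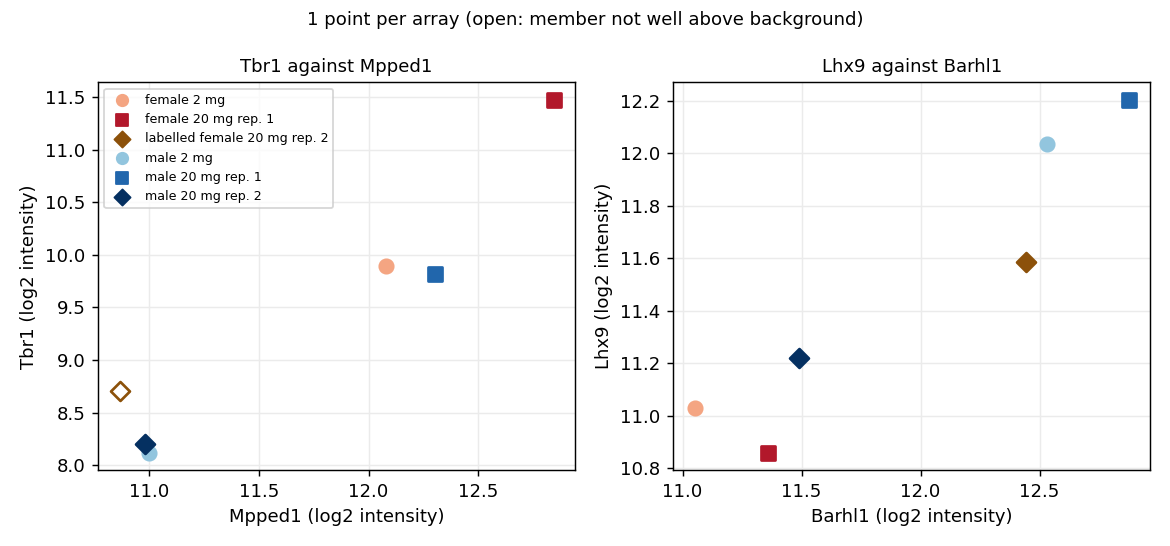
Level of Tbr1 against that of Mpped1 and of Lhx9 against that of Barhl1, each among the genes most like the member (log2 intensity, all axes), 1 point per array, open where the member was not well above background. Female 20 mg replicate 1 is highest for both Tbr1 (11.47) and Mpped1 (12.84), while for Lhx9 and Barhl1 male 20 mg replicate 1 is highest (12.20 and 12.88).

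Further genes of the same lineages were counted by the same rules. Of 10 further rhombic lip and roof plate genes, such as Atoh1 and Wnt1, 9 were tested by limma and 0 were called in either sex; 0 were past 2.5-fold in males and 2 were lower in females, Wls and Msx1. On female 20 mg replicate 1 these were 10.48 and 7.42, against 10.01 and 7.17 at 2 mg, and the dim array put their means below. The genes named here as past 2.5-fold in a list, other than those of the choroid plexus, and the midbrain genes above were chosen after their values were seen. Of 6 further genes of excitatory nuclear neurons 0 were past 2.5-fold in males and 1 in females, Slc17a6, the vesicular glutamate transporter, which was 13.08 at 2 mg and 12.37 and, on the dim array, 9.79 at 20 mg. On male 20 mg replicate 2 all 6 were below the 2 mg array, with a median of -0.66, and 5 of the 7 members were lower there too, with a median of -0.81. On male 20 mg replicate 1, 5 of those 6 and 5 of the 7 members were higher, with medians of 0.46 and 0.57. In males the medians of the pools at 20 mg thus lay on opposite sides of the 2 mg array for both sets of genes. In females the medians of the 6 genes were -0.14 on replicate 1 and -0.47 on the dim array, and those of the 7 members 0.31 and -0.95. All probes tested had a median of 0.09 on male 20 mg replicate 1 and -0.16 on male 20 mg replicate 2.

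Of 6 genes of unipolar brush cells, 1 was past 2.5-fold lower in males and 0 in females. Of 7 genes of the ventricular zone and its inhibitory neurons, 0 were past it in males, while in females Pax2 was past it higher and Lhx1 lower, both through the dim array. Pax2 was 6.12 at 2 mg and 6.47 and 9.58 at 20 mg, and Lhx1 11.14 at 2 mg and 10.71 and 5.62, the last not well above background. Of 6 close relatives of the members, 0 were past it in males and 1 in females, Olig1, which was 12.01 at 2 mg and 11.07 and, on the dim array and not well above background, 8.46 at 20 mg. In each of these lists 0 genes were called by limma in either sex, at the background of 0% given above. Choroid plexus markers, from the tissue next to the rhombic lip, were past 2.5-fold higher in females in 5 of 7 cases, where 7.12% of all probes tested were, led by Ttr at 11.21 at 2 mg and 16.16 and 14.59 at 20 mg, followed by Clic6 and Folr1. Their summed linear level was 6047 on female 2 mg and between 27393 and 81465 on the other arrays. All 7 were well above background on 4 arrays and 6 on the other 2. Lmx1a, the member nearest to this lineage, was 9.16 on female 2 mg and between 8.26 and 11.13 on the other arrays, highest on the dim array. The part of choroid plexus cells in the level of Lmx1a was not tested.

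The slides divide the arrays across the groups. Slide 1 held both 2 mg arrays and female 20 mg replicate 1, slide 2 the dim array and male 20 mg replicate 1, and slide 3 male 20 mg replicate 2. The one dose comparison within a slide was therefore the first female pair, with Tbr1 at 1.57, Eomes at 1.17, Lhx2 at 0.50, Meis2 at 0.31, Lhx9 at -0.17, Olig3 at -0.22 and Lmx1a at -0.47. With the slide as a block and additive terms for sex and dose, the difference over both sexes was 2.30 for Tbr1 (SE 1.39) and 1.40 for Lhx2 (SE 0.98), against 0.54 and -0.78 without it, and the adjusted p by limma was 1.00 for each. That fit also drew on slide 2, where male 20 mg replicate 1 was above the dim array by 4.05 for Lhx2 and by 1.11 for Tbr1. Neither gene was well above background on the dim array, so both blocked values rest in part on readings that are not reliable. In males every dose comparison crossed slides, and dose and slide cannot be told apart there.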

How the data were processed

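Total RNA of 6 pools was labelled with cyanine 3 and hybridized to 8x60k mouse arrays, 1 pool per array. The intensities were deposited by the authors as scanner files of Agilent Feature Extraction 10.7.3.1, which subtracts background and fits a surface trend without scaling between arrays. The authors also deposited a table of log2 values, quantile normalized and floored in BRB-ArrayTools, which served as an alternative; on the array labelled female 20 mg replicate 2 their median was 5.23, against 6.49 on the others. Columns of samples outside the study numbered 0.

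Here, outlier spots were dropped, the processed signals of a probe were averaged and log2 transformed, all 6 arrays were quantile normalized together, and 10 was then set as the lowest value. The quantile normalization, log scale and minimum of 10 come from the methods of the study, which do not state how outlier spots and repeat spots were treated or when the minimum was set. The 2.5-fold threshold between the mean of the 20 mg arrays and the 2 mg array is theirs too. The methods' variation filter (p at or under 0.05, at most 50% missing) kept 3 of the 11 probes, those of Lhx2, Tbr1 and the third of Lhx9. Among the 15247 probes it kept, 13.1% passed 2.5-fold in males and 69.2% in females, so the text uses the probes tested by limma. The test was limma 3.58.1 in R 4.3.3, with 4 groups and a trended empirical Bayes step. Benjamini-Hochberg adjustment ran over the 37211 probes flagged well above background on 2 arrays or more. A check on simulated data required it to find large changes at low noise, and not at the spread of these pools. The number of arrays, with 1 pool per sex at 2 mg, limits the precision.

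The members and gene lists were chosen with earlier results of these data known. Besides the 7 members, genes are named where both arrays at 20 mg of a sex passed 2.5-fold the same way, up to 3 per list, or where r over the arrays was among the 3 highest for a member; exceptions are marked, and some genes that this rule names are not reported here. The midbrain, thalamus, brainstem, meninges and red blood cell lists, of 7, 5, 7, 6 and 3 genes, had 0 limma calls. Alternatives were other scalings, background corrections, filters, gene values, the deposited table, slide or scan day as a block, and leaving out each array at 20 mg. No genome of build mm9 was used here.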

Additional observations from a re-analysis of the deposited data

How the results depend on the processing

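Members called by limma numbered 0 in every alternative, and other scalings, background corrections, gene values and the deposited table moved 69 of 70 single gene differences by less than the SD between pools. The exception was Olig3 in females, 0.07 with arrays aligned at the 75th percentile; the median of all probes in females moved by 0.66 under that scaling, and the lower share of probes past 2.5-fold from 70.9% to 22.6%. Member genes past 2.5-fold in females numbered 1 with the floor set before normalization, 1 in the deposited table (Lhx2 at -1.34), 1 in the slide 1 pair alone (Tbr1), and 0 to 3 with 1 array left out (3 without female 20 mg replicate 1); in males 0 to 1, the 1 being Tbr1 without male 20 mg replicate 2 (1.75). Without female 20 mg replicate 1, the dim array was the only female array at 20 mg, also in the limma counts below. With all 6 arrays normalized, 34.3% of the probes tested were past 2.5-fold lower on it and 18.5% higher. Past it higher were 1.95% on female 20 mg replicate 1 and 6.29% on male 20 mg replicate 1. Signs were less stable: among 11 settings Tbr1 in females ran from -1.18 to 1.57 and Lhx2 from -2.98 to 0.50. In males Tbr1 stayed above 0 and Lmx1a below 0 in all 10. These 10 share the same male 2 mg array, and for each gene both male 20 mg arrays lay on the same side of it. By limma, probes called in females numbered 3 after the percentile shift, 3 after normexp correction and 0 to 96 with 1 array left out (96 without female 20 mg replicate 1, 6 without male 20 mg replicate 1, 2 without male 20 mg replicate 2); in males 0 to 1 (1 without male 20 mg replicate 2); over both sexes 1 with the slide block and 0 to 13 (13 without female 20 mg replicate 1, 12 without male 20 mg replicate 2); for the interaction 0 to 2 (2 without male 20 mg replicate 1). The causes were not tested. No paired analysis was possible because each sex had a single 2 mg array. Dim signals on the array labelled female 20 mg replicate 2 limit the values of Eomes, Tbr1, Lhx2 and Olig3 there.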
